A study of Rattus norvegicus with 3 samples.

Results

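Complement is a cascade of plasma proteins that tags and lyses targets and calls in leukocytes. The genes described here encode the recognition and protease parts of its classical pathway, their inhibitor, and central proteins of the cascade: C1qa, C1qb, C1qc, C1r, C1s, C2, C3, Cfb and Serping1. A gene was taken when the array's annotation gave a probe set (a group of short probes that reads a transcript) that symbol and no other. Of these 9 genes, 7 had such a probe set, 1 each, among 14218 genes with a probe set of that kind. C2 and Cfb, which lie next to each other in the genome, share the probe sets that carry their names, so neither has a value of its own.

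The kidneys came from male Wistar rats of 370 to 508 g, whose age the sources used here do not state, and modelled organs of donors after circulatory death. After the donor rat was bled out, every kidney had 20 min of warm ischaemia and about 17 ± 0.7 h of cold storage in University of Wisconsin solution. A living recipient rat then perfused it with blood through the femoral artery for 5 h and 43 min ± 21 min on average, and the sources used here do not say what these errors are. The recipients, 7 per group, were given normal saline at 1 ml per hour (control), heparin at 100 U per ml per hour, or peptide 2, which was modelled on the part of the chemokine CCL5 that binds heparin, at 0.5 mg per ml. The model served to test both agents for anti-inflammatory effects. The treatment is called a bolus in the design text and an infusion in the protocol. RNA of 3 kidneys per group, those of best RNA quality, was pooled and put on 1 array, so no group has replicates, no difference has an error or a test, and an unperfused kidney was not analysed here. The values are log2 expression values made with GCRMA, a method that corrects background by probe sequence, and 1 log2 unit is 2-fold. A perfused kidney holds blood cells of the recipient as well as its own, and in pooled tissue fewer cells of a type and less RNA per cell cannot be told apart.

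All 3 arrays read as kidney: 6 of 6 proximal tubule, 3 of 3 thick ascending limb and 3 of 3 collecting duct markers lay at or above the array median on each. Of 7 hepatocyte markers, 2 were measured on all 3 arrays, Apoc3 (7.49 in control, 7.10 in heparin and 7.71 in peptide) and F2 (4.98, 4.98 and 5.74). Alb read 4.94 in control and heparin and was under the array median in peptide, while Apoa1, Serpina1 and Ahsg were at the lowest value that the arrays hold, 2.18, on all 3. The arrays differed in one sign of RNA quality. For beta-actin, the log2 value at the 3' end of the transcript exceeded that at the 5' end by 2.33 in control, 2.95 in heparin and 2.34 in peptide, while for GAPDH the excess was 0.36, 0.32 and 0.37. For hexokinase the excess was 2.18 in control, 2.18 in heparin and 2.28 in peptide. The part of RNA quality in the results was not tested.

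In the classical pathway, C1q is the recognition molecule. It is built from the A, B and C chains and binds antibody complexes, dying cells and other surfaces. C1r and C1s are serine proteases carried by C1q: C1r activates C1s, and C1s cleaves C4 and C2 to form the enzyme that splits C3. Serping1 encodes C1 inhibitor, a serpin that inactivates C1r and C1s and also restrains the mannose-binding lectin proteases, plasma kallikrein and coagulation factors. Heparin is known to increase the inhibition of C1s by C1 inhibitor. In the kidney, C1q comes mainly from macrophages and dendritic cells, whereas tubule cells can make C3, and fibroblasts, endothelial cells and macrophages can make C1r, C1s and C1 inhibitor.

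In the heparin pool the genes of the C1 proteases and of their inhibitor were 1.70- to 1.83-fold higher than in the control pool, and the C1q chains and C3 differed from it by at most 1.14-fold. In the peptide pool the same 3 genes were 1.19- to 1.29-fold higher than in control. Genes are called measured where neither array of a comparison put them under its own median probe set, and all 7 complement genes were measured in all 3 comparisons. Of these 7, 3 were at least 1.5-fold higher with heparin than with saline and 0 were at least 1.5-fold lower, where 3.04% of 9236 measured genes were that much higher and 3.37% that much lower. With each array centred on the median of its values above the array median, those shares were 3.63% and 2.67%, and the complement genes gave 3 and 0 again. At 2-fold the count of complement genes was 0, beside 1.06% of measured genes.

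C1r is the largest of these differences. Its log2 value was 8.80 in control, 9.67 in heparin and 9.14 in peptide. It was thus highest with heparin, 1.83-fold above control, and lowest in control. Of all measured genes, 1.48% were higher by at least as much in heparin against control. C1s, its substrate and neighbour in the genome, read 9.55 in control, 10.34 in heparin and 9.80 in peptide. The order of the arrays is that of C1r, with heparin 1.73-fold and peptide 1.19-fold above control. Serping1 read 9.99 in control, 10.75 in heparin and 10.36 in peptide, again in that order. It was 1.70-fold higher with heparin and 1.29-fold higher with peptide than in control. The inhibitor gene and the protease genes it acts on were therefore all higher in heparin than in control, by log2 differences between 0.76 and 0.87.

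The C1q chains lay closer to control on the heparin array. C1qa read exactly the same, 8.95, on all 3 arrays. Such identity can come from the way GCRMA summarises a probe set: 22.4% of the 9231 genes measured on all 3 arrays had identical values there, and it does not show that the transcript was equally abundant. C1qb read 8.28 in control, 8.47 in heparin and again 8.28 in peptide. C1qc read 7.98 in control, 8.17 in heparin and 8.26 in peptide, and is the only one of the 7 genes whose highest value was on the peptide array. The chains are encoded side by side on the genome and are assembled into 1 protein. Their orders across the arrays rest on identical values and on log2 differences from control of at most 0.28. Whether they share an order therefore cannot be told. C3, the protein on which all complement pathways meet, read 6.24, 6.35 and 6.25 in control, heparin and peptide. Its heparin value was 1.08-fold and its peptide value 1.01-fold that of control.

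**Figure D1:**
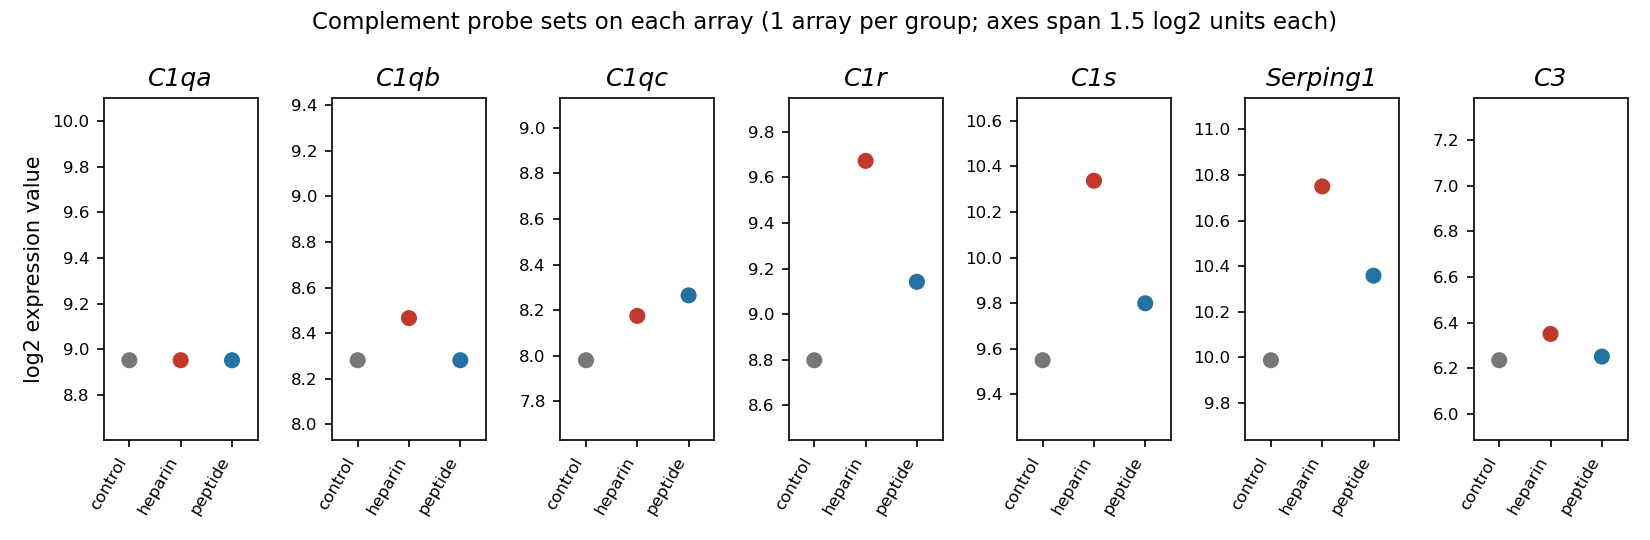
Log2 expression value of each complement probe set (vertical axes, each spanning 1.5 log2 units) on the control, heparin and peptide arrays, 1 array of pooled RNA per group and therefore no error bars. C1r, C1s and Serping1 stand highest on the heparin array and lowest on the control array, while C1qa is at 8.95 on all 3.

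Promoters from RefSeq (GRCr8) were found for 4 of the 9 genes: C1qa, C1qb, C1r and C3. The 250 bases before the start of C1r, the gene with the largest difference, and of C1qa, which read the same on all arrays, are shown because they belong to the extremes of the set. That of C1r is chr4:159098763-159099012, plus strand, and that of C1qa chr5:154419934-154420183, minus strand. Capitals mark matches to any of 3 motifs on either strand: GAAA, any 2 bases and GAAA again (interferon-stimulated response element), TTCNNNGAA (gamma-activated site), and GGG, any 5 bases and CC (NF-kB site).
C1r: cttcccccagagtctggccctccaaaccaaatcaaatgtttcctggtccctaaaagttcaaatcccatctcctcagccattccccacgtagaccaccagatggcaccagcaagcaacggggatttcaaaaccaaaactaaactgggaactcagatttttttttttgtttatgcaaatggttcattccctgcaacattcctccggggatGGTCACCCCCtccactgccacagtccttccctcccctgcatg
C1qa: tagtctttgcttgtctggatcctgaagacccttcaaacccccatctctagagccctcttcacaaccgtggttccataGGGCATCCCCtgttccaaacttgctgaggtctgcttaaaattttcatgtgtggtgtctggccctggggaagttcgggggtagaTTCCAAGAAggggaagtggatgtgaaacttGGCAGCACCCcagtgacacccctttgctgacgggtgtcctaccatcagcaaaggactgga

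In windows of 300 bases, from 250 before to 50 after the start, the C1r promoter held 1 match to the NF-kB letters, GGTCACCCCC, and 0 to the other motifs. The C1qa promoter held 1 match to the gamma-activated site, TTCCAAGAA, and 2 to the NF-kB letters. C1qb held 5 and C3 held 3 matches to the NF-kB letters, some of them overlapping. The interferon-stimulated response element was matched in 0 of the 4. Of 33469 promoters of this length, 3.92% held the interferon-stimulated response element, 8.87% the gamma-activated site and 47.3% the NF-kB letters. The last is so common that a match says little, and the absence of a match says only that these letters are not in this window.

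The 7 genes are grouped here as C1r, C1s and Serping1 against the C1q chains and C3. These are also the genes past and not past 1.5-fold with heparin, so a gap between the groups with heparin follows from the grouping. The lowest log2 difference among C1r, C1s and Serping1 was 0.76, and the highest among the C1q chains and C3 was 0.19. The groups overlapped with the peptide, where the lowest of the former was 0.25 and the highest of the latter, that of C1qc, was 0.28. The median log2 difference of the 7 genes was 0.19 in heparin against control, where the median over all measured genes was 0.00. None of the 7 was lower in heparin: 6 were higher and 1 identical, while of all measured genes 25.8% were higher, 30.1% identical and 44.2% lower.

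With the peptide, 0 of 7 exceeded control by 1.5-fold and 0 lay below it by that much, beside 2.11% and 0.917% of 9268 measured genes. The median log2 difference was 0.25, against 0.00 over all measured genes. The largest were those of Serping1 (0.37), C1r (0.34) and C1qc (0.28). Of all measured genes, 4.93% were higher by as much as Serping1. Both treatments are set against the same control array, so an unusual control value would move both differences alike.

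Heparin and peptide differ from each other in these genes by less than 1.5-fold. C1s was 1.45-fold, C1r 1.44-fold and Serping1 1.31-fold higher in heparin than in peptide, and C1qb 1.14-fold. C1qc was lower, by a log2 difference of -0.09. At 1.5-fold the counts were 0 higher and 0 lower of 7, beside 1.62% higher and 4.57% lower of 9240 measured genes. After quantile normalization C1s passed 1.5-fold, at a log2 difference of 0.61, with 2.08% of all genes higher and 3.47% lower. After centring the arrays C1r (0.61) and C1s (0.62) passed it, with 2.26% and 3.17%. This comparison does not use the control array.

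The pattern most like that of C1r was sought among 9186 other genes measured on all 3 arrays, by the Euclidean distance between the log2 differences of heparin and of peptide from control, which is a description over 3 arrays. The nearest genes were Pxmp4, Il18, Sp140, Mpeg1 and Cenpj, at distances of 0.01, 0.03, 0.06, 0.06 and 0.09. Serping1 was the 10th nearest, at 0.12, and C1s the 14th, at 0.13. C1qc was 624th, at 0.68, C1qb 931st, at 0.77, C3 1248th, at 0.83, and C1qa 2697th, at 0.94. These distances include the heparin differences by which the complement genes are grouped above, so they are no separate check of that grouping.

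**Figure D2:**
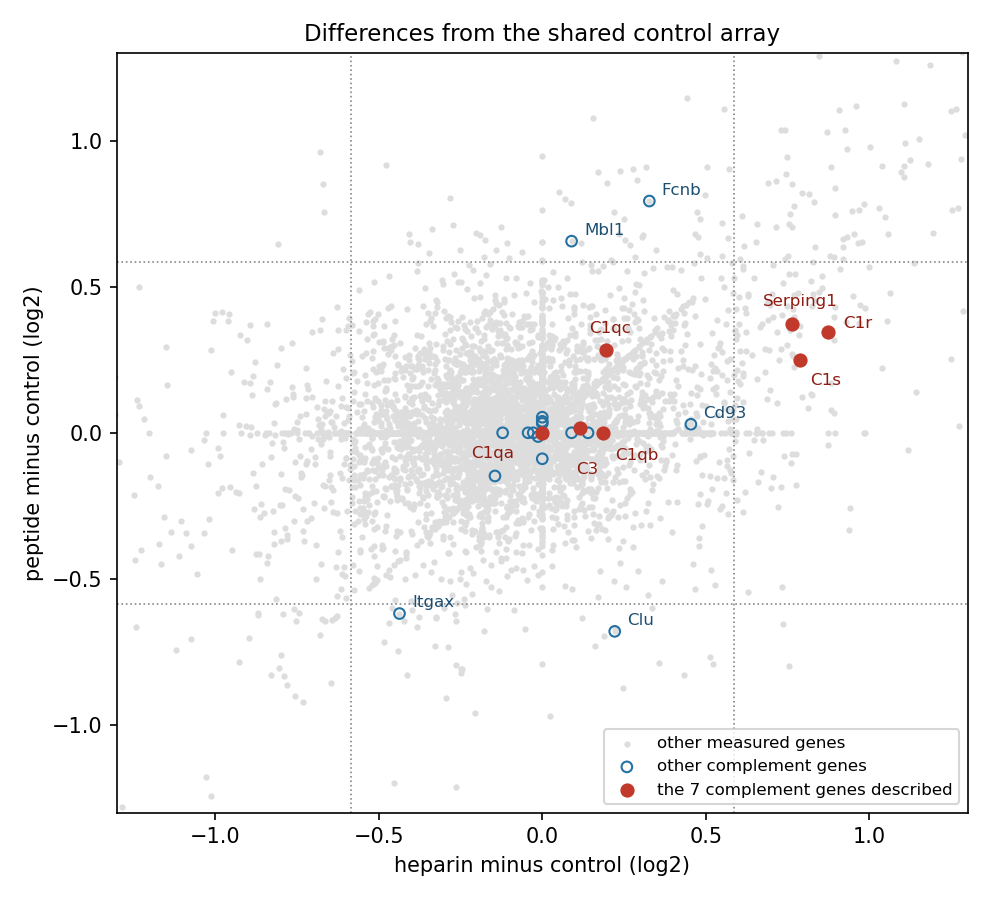
Log2 difference from control of heparin (horizontal) and of peptide (vertical) for genes measured on all 3 arrays, with the 7 complement genes as filled points, 19 other complement genes as open circles, and dotted lines at 1.5-fold. C1r, C1s and Serping1 lie right of the line for heparin at 0.76 to 0.87 and below the line for peptide, and 99 genes outside ±1.3 are not drawn.

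Among the other complement genes, 0 passed 1.5-fold with heparin. Of 46 further names (lectin, alternative and terminal pathway components, regulators, receptors and the C1r paralogue C1rl), 37 had a probe set with that symbol alone and 19 were measured. In heparin against control 0 of 19 were at least 1.5-fold higher and 0 lower, beside 3.04% and 3.37% of all measured genes, and their median log2 difference was 0.00. In peptide against control 2 were higher and 2 were lower by at least 1.5-fold, beside 2.11% and 0.917%, and the median was again 0.00. In heparin against peptide 1 was higher and 0 were lower, beside 1.62% and 4.57%. Probe sets shared with another gene are not in these counts.

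Both of the genes at least 1.5-fold higher with the peptide than in control encode soluble recognition molecules of the lectin pathway. Such molecules bind sugars on surfaces and work with proteases related to C1r and C1s. Fcnb, a ficolin made by myeloid cells, read 8.13 in control, 8.46 in heparin and 8.92 in peptide, so that peptide was 1.73-fold above control. Mbl1, a mannose-binding lectin, read 5.10, 5.19 and 5.75, with peptide 1.58-fold above control. Here the peptide array was the highest, unlike for C1r and C1s. The count of 2 fell to 1 with a filter at the 60th percentile of each array, and also with 32 added to the unlogged values. Mbl1, with the lower values and the smaller difference, is the gene that dropped out. Of 5 neutrophil markers measured, 2 were higher and 3 lower in peptide than in control, none by 1.5-fold. The summed unlogged level was 12883 in control, 12041 in heparin and 15523 in peptide. Most of that sum is S100a9 (12.92, 12.84 and 13.16) and S100a8 (12.13, 12.01 and 12.51), the 2 markers higher in peptide. Camp was at the lowest value on all arrays, and the part of neutrophils in the Fcnb value was not tested. Masp2, a protease of that pathway, differed from control by 0.00 in heparin and 0.03 in peptide. The collectin Colec12 differed by -0.01 in both.

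Downstream of C3 little was measured. C5, whose cleavage starts the lytic complex, read 9.03 on all 3 arrays, and C8g, a subunit of that complex, differed by -0.04 in heparin and 0.00 in peptide. C8a and C9 were at the lowest value on all arrays. Properdin (Cfp), which stabilises the alternative pathway enzyme, differed by 0.00 in heparin and 0.04 in peptide.

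Among the other regulators, 5 of 12 genes on the array were measured. Clu, which encodes clusterin, an inhibitor of the lytic complex that is also raised in injured tubules, read 12.42 in control, 12.64 in heparin and 11.74 in peptide. It was 1.60-fold lower in peptide than in control and 1.87-fold higher in heparin than in peptide. A second probe set of Clu was at the lowest value on all arrays. The membrane regulators moved little. Cr1l, the rodent regulator Crry that limits C3 on cells, differed by -0.14 in heparin and -0.15 in peptide. Cd55, which speeds decay of the C3 enzyme, differed by 0.09 and 0.00, and Cd59b, which blocks the lytic pore, by -0.12 and 0.00.

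Of 9 receptors and C1q-binding proteins on the array, 7 were measured. Itgax, a chain of complement receptor 4 on dendritic cells and macrophages, read 8.99 in control, 8.56 in heparin and 8.37 in peptide, which is 1.54-fold lower in peptide than in control. Cd93, an endothelial and myeloid surface protein once described as a C1q receptor, read 8.73, 9.18 and 8.76. The integrin chain Itgb2 differed by 0.14 in heparin and 0.00 in peptide, and the C5a receptor C5ar1 by 0.00 and -0.09.

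**Figure D3:**
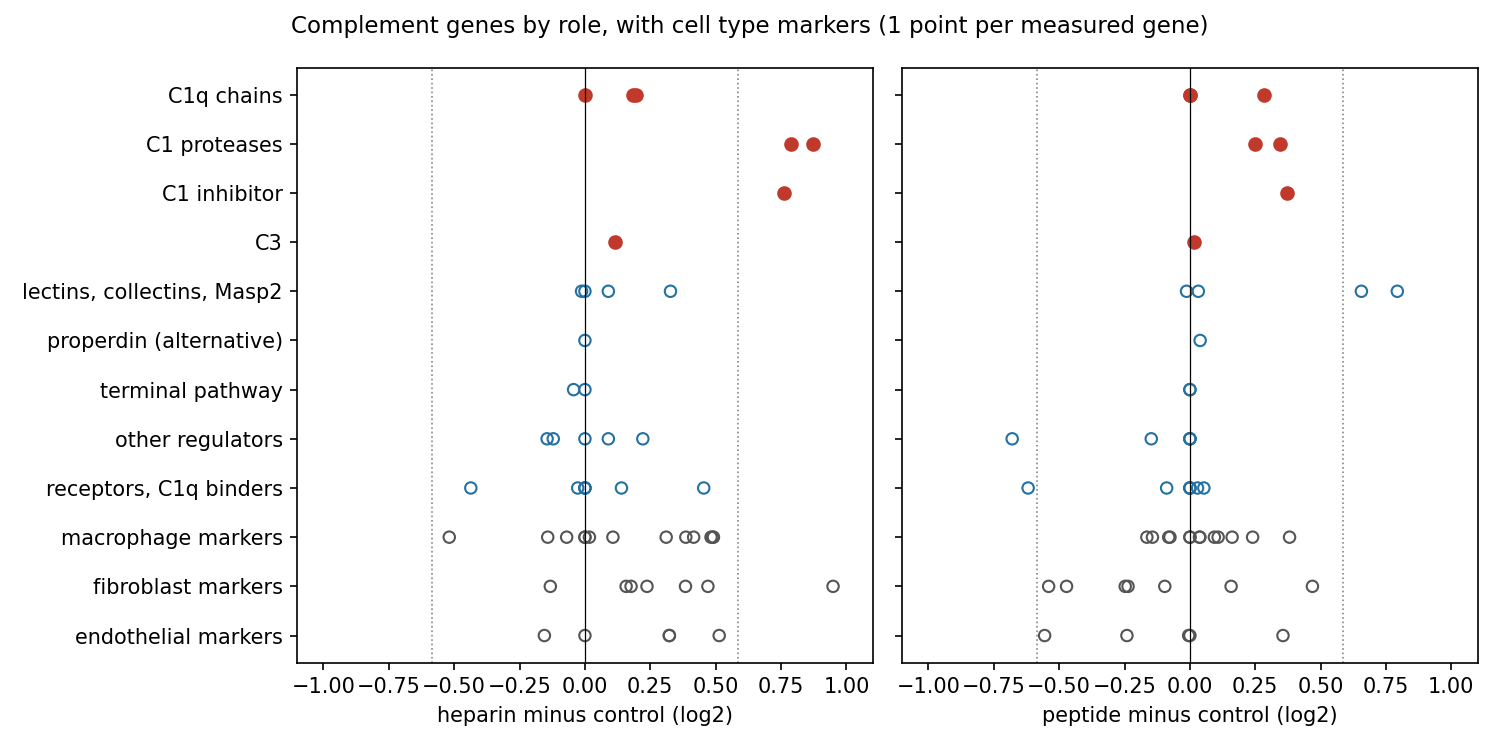
Log2 difference from control of heparin (left) and peptide (right), 1 point per measured gene, with the 7 complement genes filled, other complement genes and the macrophage, fibroblast and endothelial markers open, and dotted lines at 1.5-fold. Of the genes drawn, C1r, C1s, Serping1 and the fibroblast marker Dcn lie beyond a line with heparin, and Fcnb, Mbl1, Clu and Itgax with peptide.

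Cells that can make these proteins were followed by marker lists. Of 16 macrophage and monocyte markers, 15 were on the array and 13 measured. In heparin 8 of the 13 were higher than in control, 2 identical and 3 lower, none by 1.5-fold, with a median log2 difference of 0.11. Of all measured genes, 25.8% were higher, 30.1% identical and 44.2% lower in heparin. The summed unlogged level of the 15 markers on the array was 15993 in control, 21479 in heparin and 16787 in peptide. Lyz2, which encodes lysozyme, made up 70.5% of that sum in control and 73.8% in heparin, and without it the sum was 4719.7 in control, 5629.9 in heparin and 5211 in peptide. Cd163 was at the lowest value on all arrays. Lyz2 (0.49), Fcgr1a (0.49) and Cd68 (0.48) were higher in heparin than in control, while Aif1 differed by -0.52.

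Of 8 fibroblast and mesangial markers, 7 were measured. In heparin 6 were higher than in control, beside 25.8% of all measured genes, with a median of 0.24. Of these 1, the proteoglycan gene Dcn (0.95), was at least 1.5-fold higher, beside 3.04% of all measured genes. In peptide 5 of 7 were lower, beside 28.5% of all measured genes. The median was -0.24, while Dcn was higher by 0.47. The summed level was 8273 in control, 10456 in heparin and 7439 in peptide. Most of it is Vim, which read 12.64, 12.88 and 12.39, so the sum mainly follows that gene. Of 5 endothelial markers measured, 3 were higher in heparin, with a median of 0.32, and 1 in peptide, with a median of 0.00. Their summed level was 2802, 3526 and 2393. The summed level of the 7 complement genes was 3344 in control, 5051 in heparin and 3959 in peptide. Of 4 podocyte markers measured, 1 was at least 1.5-fold higher in heparin and 1 at least 1.5-fold lower in peptide, with medians of 0.52 and -0.14. Of all measured genes, 3.04% were that much higher in heparin and 0.917% that much lower in peptide. Platelet markers went the other way from C1r with heparin, 4 of 4 measured being at least 1.5-fold lower, beside 3.37% of all measured genes. With the peptide 4 of 4 were lower as well, 3 of them by at least 1.5-fold, beside 0.917%. The B cell markers on the array, Cd79b and Ms4a1, were at the lowest value, and 7 of 8 T and NK cell markers lay under the array median. The part of these cell types in the complement values was not tested.

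The genes of C1r, C1s and C1 inhibitor can be induced by interferon gamma. Of 23 interferon-stimulated genes measured in heparin against control, 20 were higher and 1 was lower by at least 1.5-fold, with a median log2 difference of 1.29. The lower one was Mx2, at -1.17, and its other measured probe set was higher, by 2.46. In peptide 18 of 22 were at least 1.5-fold higher and 0 lower, with a median of 0.99. Of all measured genes, 3.04% were that much higher and 3.37% lower in heparin, and 2.11% and 0.917% in peptide. Acute phase genes, some of which share inflammatory inducers with C3, gave 0 of 8 at least 1.5-fold higher and 2 lower in heparin, with a median of -0.12. In peptide 1 was higher and 2 were lower, with a median of 0.00. The same shares of all measured genes stand beside these acute phase counts. The part of both lists in the complement values was not tested.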

How the data were processed

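The authors deposited log2 expression values, 1 column per array (control, heparin, peptide), each from pooled RNA of 3 kidneys labelled from 6 µg, per the labels' protocols. The submitters' processing notes name GCRMA with no version. How it was set, and whether arrays were normalized to each other, the sources used here do not state. No further normalization was applied. Precision is limited by having 1 array per group. Of 31099 probe sets, 20832 had 1 symbol in the platform annotation, 436 several and 9831 none. All 7 complement probe sets had gene IDs with the same symbol in RefSeq (GRCr8). A gene with several probe sets was represented by the one with the highest mean, and identical means equal within 1e-06 on the log2 scale. Of 177 list entries, 153 matched by symbol, 2 by synonym and 22 not. Genes were named from the 7 complement genes, up to 4 measured genes with the largest difference per list, and the 5 nearest to C1r. Not all list genes that this rule gives are printed. Mx2, Vim and list genes at the lowest value (C8a, C9, Apoa1, Serpina1, Ahsg, Cd163, Camp, Cd79b and Ms4a1) were named after their values were seen. The genes, lists and the 1.5-fold threshold were chosen with earlier results of these data known. Python 3.11.15, numpy 2.4.6 and pandas 2.3.3 were used, and the counting was tested on simulated data.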

Additional observations from a re-analysis of the deposited data

How the results depend on the processing

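The 3 complement genes at least 1.5-fold higher in heparin than in control were counted again as 3 under the other normalizations and the added pseudocount of 32. With a call at 2-fold the count was 0. The other probe set choices and filters also gave 3 but could not change it, because each of these genes has 1 probe set and lies above the filters. The log2 differences of the 3 genes stayed between 0.83 and 0.93 (C1r), 0.76 and 0.85 (C1s) and 0.74 and 0.82 (Serping1). In heparin against peptide the count of complement genes at least 1.5-fold higher, 0 as deposited, was 1 after quantile normalization and 2 after centring the arrays, which moved the median of all genes by 0.04 and 0.08. Of the other complement genes past 1.5-fold, the 4 in peptide against control became 3 with a filter at the 60th percentile. They also became 3 when probe sets of a gene were averaged, 2 with 32 added to the unlogged values and 0 at 2-fold. The 1 in heparin against peptide, Clu, became 0 when probe sets of a gene were averaged and at 2-fold. In all, 101 of the recomputed counts and medians stayed within 1.5 times for counts or 0.1 for medians, while 5 became weaker and 2 stronger. Among the 101 are values under settings that could not change them. Counting the probe sets shared by Cfb and C2 as 1 further entry, chosen after seeing the data, gave 4 in heparin and 0 in peptide against control. This entry used the shared probe set with the highest mean, which differed by 0.81 in heparin and 0.36 in peptide. Another shared probe set, at 0.62 in peptide, is past 1.5-fold, and a further probe set, at 0.43 in heparin, is not. Both counts therefore depend on that choice. Each complement gene has 1 probe set, so no second probe set checks it. No paired analysis was possible because each group has 1 array.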

Other observations

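The array has 4 probe sets that its annotation gives to both Cfb and C2. Cfb encodes factor B, the protease of the alternative pathway, and C2 the related protease of the classical pathway. The values cannot be assigned to either gene. All 4 were higher in heparin than in control, by log2 differences of 0.43, 0.75, 0.81 and 1.02, and 3 of these are at least 1.5-fold. All 4 were also higher in peptide than in control, by 0.14 to 0.62, and the largest of these is at least 1.5-fold. In heparin against peptide the differences ran from -0.0008 to 0.61, and the largest is again at least 1.5-fold. Of all measured genes with 1 symbol, 3.04%, 2.11% and 1.62% were that much higher in the 3 comparisons, in this order. The probe set with the largest differences from control read 5.64 in control, 6.66 in heparin and 6.26 in peptide. The one with the highest mean read 6.45, 7.25 and 6.80. A probe set given to both C4b and C4a, the next substrates of C1s, read 8.26 in control, 8.21 in heparin and 8.31 in peptide, so it was not higher with heparin. Another 2 probe sets are given to both Tubb4b, a tubulin gene, and C7, a component of the lytic complex, and were higher in heparin than in control by 0.62 and 0.96 and in peptide by 0.25 and 0.24. No explanation of these values was tested.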
